A study of Mus musculus with 6 samples.

Results

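The 8 genes followed here mark stem, progenitor or fetal Leydig cells and the stroma of the testis interstitium: Vcam1, Thy1, Pdgfra, Lifr, Thbs2, Nes, Tcf21 and Gata6. They were taken by symbol from the deposited table, where all 8 of 8 were found among 36652 genes, and all 8 passed the filter on low values. The data were RNA sequencing libraries of testis from 8-week-old mice, 3 labelled WT and 3 labelled Ccdc117ko. The labels name no strain or mutant allele and do not say whether replicates were separate mice, so p-values measure only the spread between these samples.

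The interstitium is the tissue between the seminiferous tubules. Adult Leydig cells, which make testosterone there, arise after birth from spindle-shaped stem and progenitor cells that lie around the tubules and vessels and carry Pdgfra, Tcf21 or Nes, while fetal Leydig cells form an earlier population. These markers, Vcam1 and Pdgfra among them, are shared with other cells of the testis. Gata6 and Lifr are not restricted to Leydig cells, Nes is also found in vascular wall cells, and Thy1 in T cells and undifferentiated spermatogonia. In whole tissue, fewer cells of a type and less RNA per cell cannot be told apart.

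The whole reads recovered from the table came to 35791616 to 43461692 per library. For Ccdc117 itself the normalized counts read 3657, 3826 and 3931 under the WT label and 3478, 3772 and 3908 under the Ccdc117ko label, a log2 fold change of -0.03 (SE 0.05, limma adjusted p = 0.763). A total over the gene does not check a mutation whose position the labels do not give, so directions below rest on the genotype labels alone. Defining genes of the testis were abundant, with WT means of 48328 normalized counts for Insl3 (Leydig cells) and 43791 for Clu (Sertoli cells).

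Of the 8 markers, Vcam1, Lifr and Pdgfra were lower in the Ccdc117ko libraries (at 67.4%, 75.2% and 77.2% of the WT level), none was called higher, and 5 were not called. In limma, 6.80% of the 32783 genes tested were called at an adjusted p under 0.05, 3.10% lower and 3.70% higher. At an unadjusted p under 0.05, which 22.7% of tested genes passed (11.6% lower and 11.1% higher), the markers again gave 3 lower and 0 higher. The FDR in the authors' deposited table was under 0.05 for 3 of them, all lower, where that table calls 11.5% of genes and 5.77% as lower. The log2 change was below 0 in 7 of 8 markers and their median was -0.37, against a median of 0.00 and 49.8% below 0 over all genes tested. The values of the genotypes did not overlap for 4 markers, each lower, where 27.0% of tested genes did so in either direction and 13.3% in that one.

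**Figure D1:**
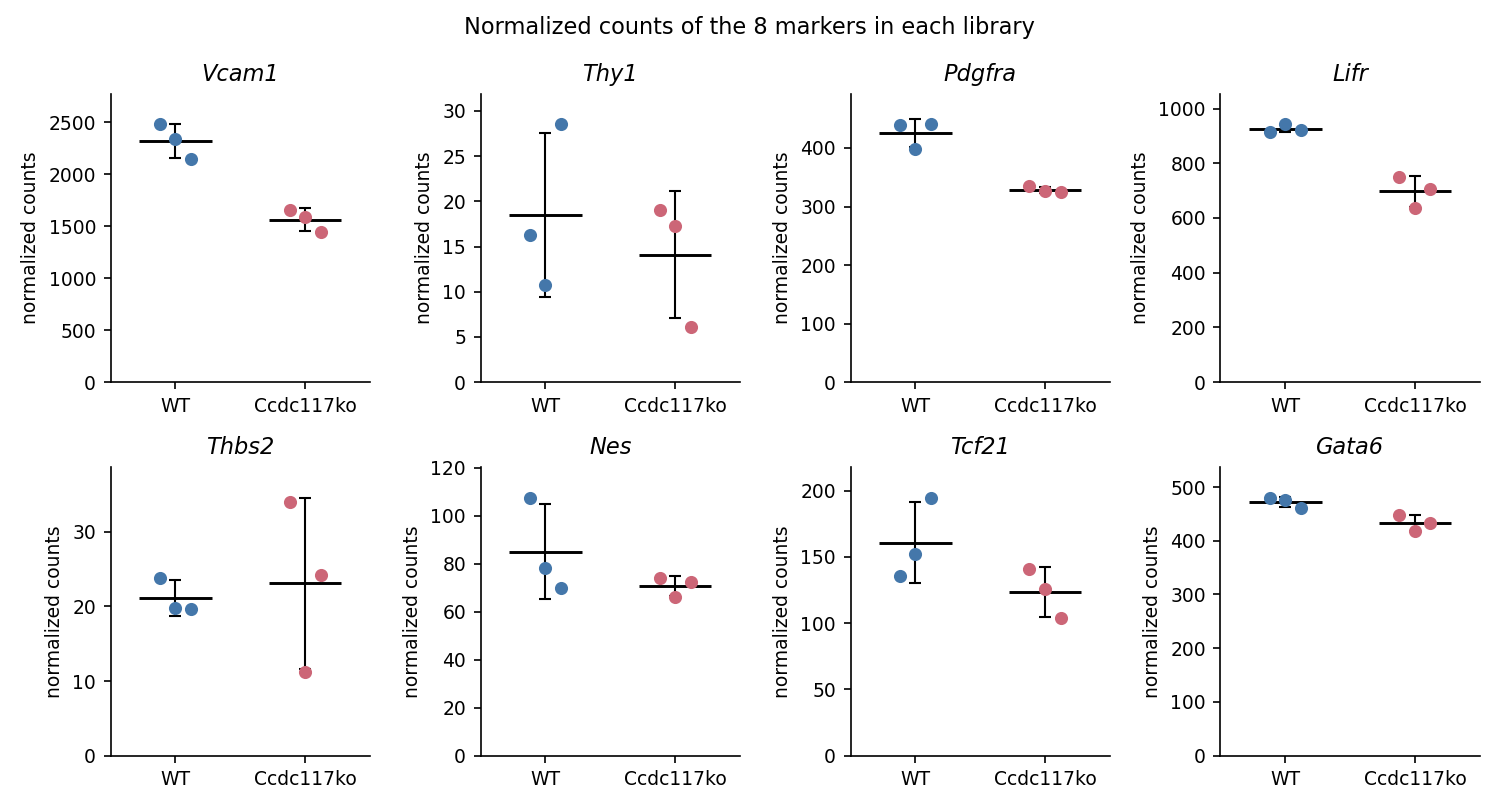
Normalized counts (vertical axes, from 0) of each of the 8 markers in the 3 WT (blue) and 3 Ccdc117ko (red) libraries, with the mean as a horizontal line and the SD as whiskers. The genotypes are separated for Vcam1, Lifr, Pdgfra and, by a narrow gap, Gata6, and overlap for Thy1, Thbs2, Nes and Tcf21.

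Vcam1 encodes an adhesion molecule of the immunoglobulin superfamily that binds integrins on other cells. Vcam1 (ENSMUSG00000027962) is a minus-strand gene of chromosome 3 (mm10, 116109949 to 116129688); 61 of its exon bases are shared with Gm43109 on the other strand, which had a mean of 0.362 normalized counts. WT libraries 1 to 3 held 2479, 2337 and 2147 normalized counts, and the Ccdc117ko libraries 1657, 1588 and 1446. Every Ccdc117ko library was thus below the lowest WT library. The means were 2321 ± 166 and 1564 ± 107 (SD, n = 3 each), and Vcam1 fell to 67.4% of WT, a log2 fold change of -0.57 (95% interval -0.73 to -0.41, limma adjusted p = 0.0124). Of the 17549 genes averaging 50 or more normalized counts, 1.37% had a log2 change at or below that of Vcam1. The call was lost without WT replicate 2 (limma adjusted p = 0.0669) or 3 (0.0889) or Ccdc117ko replicate 1 (0.0598), 2 (0.110) or 3 (0.0845), while the log2 change stayed between -0.62 and -0.51. When the test was limited to genes averaging 10 or more normalized counts, of which 8.25% were called lower with all libraries in, Vcam1 was called whichever library was left out (limma adjusted p 0.000477 to 0.0044). Joining this limit to a library left out was chosen after seeing the data, and those fits called 1714 to 4021 genes in all.

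The second surface marker, Thy1, a glycoprotein held in the membrane by a lipid anchor, was near the lower end of detection. Thy1 (ENSMUSG00000032011, chromosome 9, plus strand, 44043384 to 44048579) was covered by 15, 12 and 29 reads in WT, against 19, 17 and 6 in Ccdc117ko. In normalized counts these were 16.3, 10.8 and 28.5 against 19.0, 17.3 and 6.05, and the genotypes overlapped. Its coefficient of variation was 49.0% in WT and 49.8% in Ccdc117ko. The log2 fold change was -0.41 with a 95% interval from -1.57 to 0.76 (limma adjusted p = 0.690), so a change of the size seen for Vcam1, in either direction, was not detectable at this depth. The sign rested on one library, since without Ccdc117ko replicate 3 the log2 change was 0.07.

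The receptor genes Lifr and Pdgfra were both lower. Lifr encodes the receptor chain that binds leukemia inhibitory factor and signals together with the shared chain gp130, the product of Il6st. Per library, 916, 942 and 922 normalized counts were found in WT against 750, 637 and 706 in Ccdc117ko. The WT values lay close together, with a coefficient of variation of 1.47%, the Ccdc117ko values spread more widely at 8.13%, and the ranges stood apart. Lifr (ENSMUSG00000054263, chromosome 15, plus strand, 7090614 to 7197489) had means of 927 ± 13.6 and 698 ± 56.7 (SD, n = 3 each) and fell to 75.2% of WT (log2 fold change -0.41, 95% interval -0.57 to -0.25, limma adjusted p = 0.0197).

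Pdgfra encodes the alpha receptor for platelet-derived growth factors and is a marker of mesenchymal progenitors of the interstitium. Normalized counts stood at 440, 398 and 440 for WT replicates 1 to 3, compared with 335, 326 and 325 for Ccdc117ko. Here the Ccdc117ko values were the tighter group, with a coefficient of variation of 1.68% against 5.64% in WT, and again no Ccdc117ko library reached the lowest WT library. Pdgfra (ENSMUSG00000029231, chromosome 5, plus strand, 75152292 to 75198215) had means of 426 ± 24.0 and 328 ± 5.51 (SD, n = 3 each) and fell to 77.2% of WT (log2 fold change -0.37, 95% interval -0.53 to -0.21, limma adjusted p = 0.0254). Of its exon bases 456 are shared with Gm42802 and 166 with Gm42803, both antisense, and 30 with Mir7025, of which Gm42802 had a mean of 3.10 normalized counts.

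Both receptor calls were lost whichever single library was left out, with limma adjusted p of 0.0578, 0.0786 and 0.0951 for Lifr without WT replicates 1 to 3 and 0.0603, 0.107 and 0.0853 without Ccdc117ko replicates 1 to 3, and of 0.0588, 0.0652 and 0.107 and then 0.0800, 0.112 and 0.0894 for Pdgfra. The log2 change ran from -0.46 to -0.35 for Lifr and from -0.42 to -0.35 for Pdgfra over those fits, and under the limit of 10 normalized counts both were called in each of them (limma adjusted p at most 0.0193 and 0.0478). As for Vcam1, that combination was chosen after seeing the data.

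The promoters of Pdgfra and Lifr are shown because these are the receptor genes that were lower together. RefSeq (GRCm38.p6) gave a promoter for 5 of the 8 markers, Lifr, Nes, Pdgfra, Tcf21 and Thbs2. Both RefSeq starts of Lifr lie inside the gene span given above, which begins upstream at 7090614, so neither is at its 5′ end. The 200 bases from 250 to 51 bases before the start site are printed 5′ to 3′ on the plus strand, at chr5:75152001-75152200 for Pdgfra and chr15:7129322-7129521 for the first of the Lifr starts, with capitals at every match to a searched motif on either strand.
Pdgfra: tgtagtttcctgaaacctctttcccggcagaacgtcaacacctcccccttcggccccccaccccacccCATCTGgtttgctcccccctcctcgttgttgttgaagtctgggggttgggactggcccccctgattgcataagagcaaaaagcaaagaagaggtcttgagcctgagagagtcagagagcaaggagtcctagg
Lifr: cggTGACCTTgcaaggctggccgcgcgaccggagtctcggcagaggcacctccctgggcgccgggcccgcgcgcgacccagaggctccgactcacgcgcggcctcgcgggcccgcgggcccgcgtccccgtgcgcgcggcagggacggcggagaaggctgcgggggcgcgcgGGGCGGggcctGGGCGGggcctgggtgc
The motifs searched on both strands were the TATA box, spelled TATAAA, and the GC box, spelled GGGCGG, then the site for GATA factors, as AGATAA or else as TGATAA, the site bound by Nr5a1, spelled AAGGTCA, and the E-box of helix-loop-helix factors, as CAGCTG or else as CATCTG. No match overlapped another in these windows. The Pdgfra window held 1 CATCTG, a motif present in 12.0% of 32851 promoter windows of this length. The Lifr window held 2 matches to GGGCGG, present in 24.6% of windows, and 1, on the other strand, to AAGGTCA, present in 3.36%. The windows also differed in base composition, with 56.5% G and C for Pdgfra and 82.5% for this Lifr window, against a median of 51.5%. The other Lifr start in RefSeq, at chr15:7140292-7140491, had 49.5% G and C, 1 match to TGATAA, present in 6.74% of windows, and 0 to GGGCGG or AAGGTCA, so the contrast depends on the start. These matches describe letters in the window, and no binding was measured.

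The transcription factor markers Tcf21 and Gata6 were lower on average without a call. Tcf21 is a basic helix-loop-helix factor of mesenchymal cells in several organs. In WT, 136, 152 and 195 normalized counts were measured, and in Ccdc117ko 141, 126 and 104. The highest Ccdc117ko library lay above the lowest WT library, so the genotypes overlapped. Tcf21 (ENSMUSG00000045680, chromosome 10, minus strand, 22817281 to 22820174) had a log2 fold change of -0.37, as large as that of Pdgfra, but with a 95% interval of -0.76 to 0.02 (limma adjusted p = 0.241).

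Gata6, a zinc-finger factor that acts with Gata4 in gonadal somatic cells, had 480, 475 and 461 normalized counts in WT, against 449, 418 and 433 in Ccdc117ko. Its values did not overlap, but the gap between the lowest WT and the highest Ccdc117ko library was small. Gata6 (ENSMUSG00000005836, chromosome 18, plus strand, 11052064 to 11085635) had means of 472 ± 9.85 and 433 ± 15.5 (SD, n = 3 each). Its log2 fold change was -0.12 (95% interval -0.27 to 0.02, limma adjusted p = 0.28). The interval does not reach the fitted changes of Vcam1, Lifr or Pdgfra. Gata6 shares 93 exon bases with 1010001N08Rik on the other strand, which had a mean of 33.9 normalized counts.

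The matrix and cytoskeleton markers were not called. Thbs2, which encodes a secreted thrombospondin of the extracellular matrix and has been used as a fetal Leydig cell marker, was covered by 22, 22 and 20 reads in WT, against 34, 11 and 24 in Ccdc117ko. In normalized counts Thbs2 had 23.9, 19.7 and 19.7 against 34.0, 11.2 and 24.2, so the Ccdc117ko libraries held both the highest and the lowest value. Thbs2 (ENSMUSG00000023885, chromosome 17, minus strand, 14665500 to 14694235) had a log2 fold change of 0.00 with a 95% interval from -0.90 to 0.91 (limma adjusted p = 0.997). Its sign changed with the pseudocount, the scaling and the library left out, between -0.33 without Ccdc117ko replicate 1 and 0.43 without Ccdc117ko replicate 2.

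Nes encodes nestin, an intermediate filament protein of stem and progenitor cells. Across WT replicates the gene reached 107, 78.0 and 69.8 normalized counts, and across Ccdc117ko replicates 74.0, 66.1 and 72.6. WT replicate 1 was high, and the other WT values lay near the Ccdc117ko range. Nes (ENSMUSG00000004891, chromosome 3, plus strand, 87971078 to 87980451) had a log2 fold change of -0.24 (95% interval -0.66 to 0.18, limma adjusted p = 0.504), which was -0.06 without WT replicate 1.

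**Figure D2:**
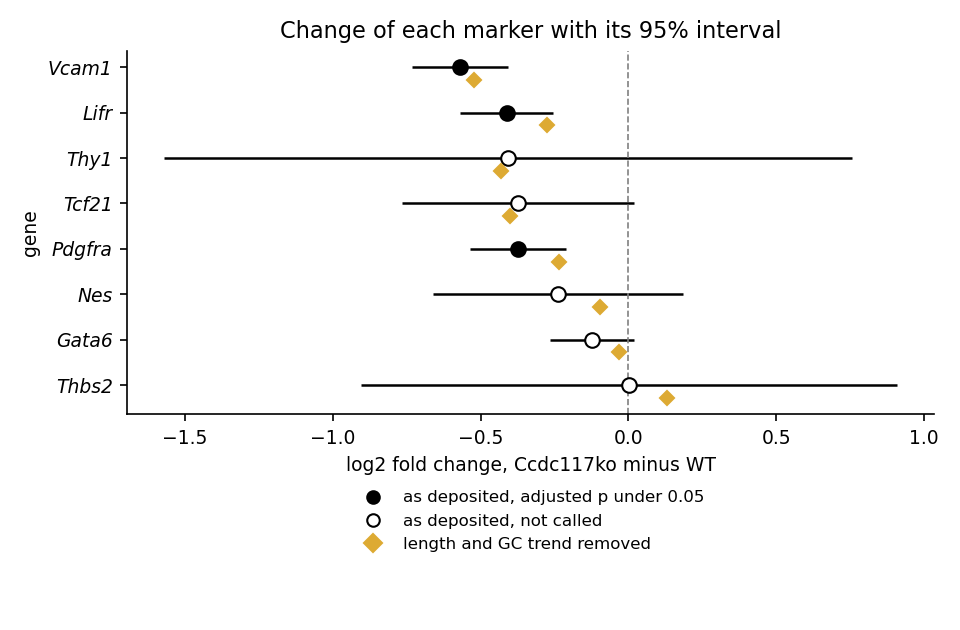
Log2 fold change (horizontal axis, Ccdc117ko minus WT) of each marker with its 95% limma interval (circles, filled where the adjusted p was under 0.05), and diamonds for the change after each library's trend with transcript length and GC content was removed. The intervals of Vcam1, Lifr and Pdgfra lie below 0, those of Thy1 and Thbs2 span both directions widely, and the diamond lies nearer to 0 than the circle for Vcam1, Lifr, Pdgfra, Nes and Gata6.

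The markers were set on one scale of level as normalized counts per kilobase of annotated exon. In WT, Vcam1 had the highest level at 262 ± 18.7 (SD, n = 3), followed by Lifr at 86.0 ± 1.26, Gata6 at 72.5 ± 1.51, Tcf21 at 68.5 ± 12.9, Pdgfra at 42.5 ± 2.40, Nes at 13.3 ± 3.09, Thy1 at 6.18 ± 3.03 and Thbs2 at 3.01 ± 0.345. Neighbours in this order of levels were separated in all 3 WT libraries except Gata6 and Tcf21, whose ranges overlapped. In the Ccdc117ko libraries the level of Lifr was 64.7 ± 5.26 and that of Gata6 66.6 ± 2.39, so their mean order was exchanged and their ranges overlapped, and Thy1 and Thbs2 overlapped as well. The other places in the order were the same. The exchange depends on the length used, here all annotated exon bases (10776 for Lifr and 6508 for Gata6). By the longest transcript (9655 and 3784 bases), Gata6 would stand above Lifr in both genotypes.

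Ratios of normalized counts within a library were used to compare the changes of the called markers with each other and with Gata6. The ratio of Vcam1 to Gata6 was 5.17, 4.92 and 4.66 in WT, against 3.69, 3.80 and 3.34 in Ccdc117ko. These ratios did not overlap, a difference of log2 changes of -0.45 ± 0.07 (SE), and neither did those of Lifr to Gata6 (-0.29 ± 0.04) or Pdgfra to Gata6 (-0.25 ± 0.06). Each of these had an exact two-sided permutation p of 0.1, the smallest that 3 against 3 libraries allow, and 0.2 after adjustment over the 6 pairs. The called markers were picked by their fall and Gata6 changed little, so separated ratios follow largely from that choice. Ratios of other gene pairs were not computed for comparison. The ratios of Vcam1 to Lifr (-0.16 ± 0.10, exact p = 0.3), Vcam1 to Pdgfra (-0.20 ± 0.09, exact p = 0.2) and Lifr to Pdgfra (-0.04 ± 0.08, exact p = 0.7) overlapped between genotypes, so the called markers were not separated from each other by the size of their change.

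Transcript length moved with these changes. Across 14256 protein-coding genes averaging 50 or more normalized counts, the median log2 change was 0.10 in the shortest of 5 equal bins by longest transcript and -0.14 in the longest, and the share called lower was 1.44% and 13.2%. Lifr, with a longest transcript of 9655 bases, and Pdgfra, with 6834, belonged to the longest bin, as did Nes (6126) and Thbs2 (5895). Vcam1 (4088 bases) was in the bin below, where the median was -0.09 and 8.80% of genes were called lower, whereas Tcf21 (1788) and Thy1 (1735) were in the shortest. Relative to the median of its own bin, the log2 change was -0.48 for Vcam1, -0.47 for Tcf21, -0.28 for Lifr and -0.24 for Pdgfra.

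With the length and GC trend of each library removed, Vcam1 kept its call and the receptor genes did not. The corrected log2 change was -0.52 for Vcam1 (limma adjusted p = 0.0102), -0.27 for Lifr (0.0508) and -0.23 for Pdgfra (0.0945), where 5.69% of all tested genes were called and 1.70% as lower. For Gata6 it was -0.03 and for Nes -0.09, while the short Tcf21 stayed at -0.40 (limma adjusted p = 0.226). The trend ran with genotype, so its removal also takes away any change of genotype tied to length, and the part of length in the lower receptor values cannot be told apart from that of genotype.

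**Figure D3:**
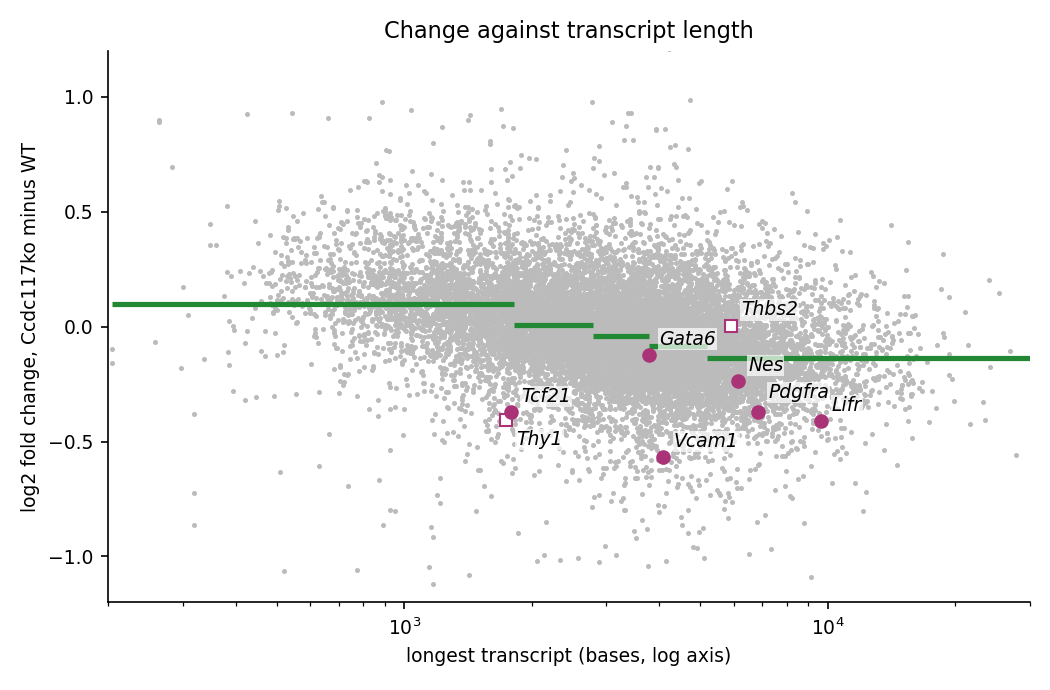
Log2 fold change (vertical axis, Ccdc117ko minus WT) against the longest transcript in bases (log axis) for 14256 protein-coding genes averaging 50 or more normalized counts (grey; 26 lie outside the axes), with green lines at the median of each of 5 length bins and the 8 markers named (open squares where the mean was under 50). The green medians step down from 0.10 to -0.14, and Vcam1 and Tcf21 lie well below the medians at their length.

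The signalling partners of the markers were then read from the same fit. Of 44 tested partner genes 1 was higher, 4 were lower and 39 were not called, with a median log2 change of -0.16. Calls over all tested genes were 3.10% lower and 3.70% higher. At an unadjusted p under 0.05, 14 partner genes were lower and 3 higher, against 11.6% and 11.1% of all tested genes. The authors' FDR was under 0.05 for 10 lower and 2 higher partner genes, where 5.77% of all genes were lower by it. In the pathway of Lifr, Jak1, a kinase bound to gp130, fell to 1081 ± 52.7 normalized counts from 1371 ± 63.3 in WT (SD, n = 3 each; log2 fold change -0.34, limma adjusted p = 0.0201, and 0.0402 with the length trend removed). Of the 15 tested genes of this family 13 were not called, among them Il6st at -0.23, Stat3 at -0.22 (limma adjusted p = 0.0638) and the ligand Lif itself, whose mean was 9.50 normalized counts in WT and 11.7 in Ccdc117ko. Il6 was not analysed here.

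No ligand or partner of Pdgfra was called by limma over all tested genes. Pdgfa, a ligand of Pdgfra, had 633 ± 91.0 normalized counts in WT and 497 ± 49.98 in Ccdc117ko, a log2 fold change of -0.34. Its limma adjusted p was 0.129, with 0.0449 under the limit of 10 normalized counts and 0.127 with the length trend removed. Pdgfc, the other most abundant gene of the list, had a log2 change of -0.02. Of 5 genes 1 was lower and 1 higher at an unadjusted p under 0.05, and the authors' deposited table called 1 lower at an FDR under 0.05. The receptor Pdgfrb had 103 ± 6.60 and 94.8 ± 11.7 normalized counts, a log2 change of -0.13.

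Among the adhesion partners of Vcam1, the integrin beta chain Itgb1, which pairs with Itga4 to bind it, fell to 1461 ± 61.4 normalized counts from 1753 ± 70.2 in WT (SD, n = 3 each; log2 fold change -0.26, limma adjusted p = 0.0295, and 0.0565 with the length trend removed). The other 6 of 7 tested were not called, and Itga4 itself had few reads, with means of 18.5 and 10.1 normalized counts. Gata4, the close relative of Gata6, fell from 1331 ± 31.6 to 1124 ± 19.5 (log2 fold change -0.24, limma adjusted p = 0.0239, and 0.0864 with the trend removed), as the one gene called among 7 GATA and helix-loop-helix partners. Vim, the filament protein that nestin assembles with, fell from 3124 ± 75.2 to 2730 ± 79.5 (log2 fold change -0.19, limma adjusted p = 0.0341, and 0.055 with the trend removed) as the one gene called of 4 filament genes.

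The relatives and receptors of Thbs2 gave 0 calls of 6 in limma, with 2 lower at an unadjusted p under 0.05 and 1 lower by the FDR of the authors' deposited table. The cartilage matrix gene Comp, the most abundant, had means of 13272 and 13586 normalized counts and a log2 change of 0.03, and Thbs3 had 0.02. Thbs1 had 174, 158 and 171 normalized counts in WT and 135, 78.2 and 93.7 in Ccdc117ko, with no overlap. Its log2 change of -0.74 missed the threshold over all tested genes (limma adjusted p = 0.0604). It passed under the limit of 10 normalized counts (0.0141) and with robust moderation (0.0237). With the length trend removed Thbs1 had -0.61 and was not called (limma adjusted p = 0.0903).

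Other markers of stem and progenitor cells and of stroma were mostly below 0 without a call. Of 14 further stem and progenitor markers 11 were below 0, with a median of -0.19, and limma called 0, against 4 lower at an unadjusted p under 0.05 (11.6% of all tested genes were) and 2 lower by the FDR of the authors' deposited table. The most abundant were Ngfr, the low-affinity nerve growth factor receptor, and the adhesion molecule Mcam. Ngfr had 1012 ± 96.9 normalized counts in WT and 782 ± 105 in Ccdc117ko, a log2 change of -0.37. Its limma adjusted p was 0.0788, with 0.0192 under the limit of 10 normalized counts and 0.137 with the length trend removed. Mcam had 522 ± 42.3 and 438 ± 14.2 (log2 change -0.25, limma adjusted p = 0.0948). Of 11 stroma genes 7 were below 0, with a median of -0.12, and limma called 0, against 3 lower and 1 higher at an unadjusted p under 0.05 and 1 lower by the authors' FDR. The proteoglycan gene Dcn had -0.20 and the collagen gene Col1a2 -0.12, and the latter was 0.01 with the length trend removed. Of the 3 fetal Leydig genes on the list only Ren1 was analysed here, with 46.8 ± 16.1 and 39.0 ± 8.46 normalized counts and no call (limma adjusted p = 0.686), and 0 of 1 at an unadjusted p under 0.05 or by the authors' FDR.

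Genes on the adult Leydig list moved both ways beside these markers, and whether each is restricted to adult cells was not tested. Of 10 genes 3 were higher, 2 lower and 5 not called, with a median of 0.08, where 3.70% of all tested genes were called higher and 3.10% lower. At an unadjusted p under 0.05, 4 were lower and 4 higher, against 11.6% and 11.1% of all tested genes. By the authors' FDR 3 were lower and 3 higher. Star, Hsd3b6 and Cyp17a1, which supply or carry out steps of androgen synthesis, rose by 1.23, 0.86 and 0.47 on the log2 scale (limma adjusted p = 0.0108, 0.0124 and 0.0169), whereas Hsd3b1, another isoform of the same dehydrogenase as Hsd3b6, fell by 0.90 (0.000985) and the factor Nr5a1 fell by 0.24 (0.0357, and 0.0582 with the length trend removed). With a library left out, 7 genes of the partner and lineage lists were called without WT replicate 1, 2 without WT replicate 3, 1 without Ccdc117ko replicate 1 and 0 without any of the other libraries, against 10 with all of them. Hsd3b1 was still called without WT replicate 1 (limma adjusted p = 0.0329), WT replicate 3 (0.00868) or Ccdc117ko replicate 1 (0.0317), and Star without WT replicate 1 (0.0388) or WT replicate 3 (0.00772). Under the limit of 10 normalized counts 21 genes of these lists were called, 6 higher and 15 lower. That fit called 3798 of 22878 genes in all, 1911 higher and 1887 lower. With a library left out as well, 8 to 19 genes of these lists were called, and 1714 to 4021 genes in all.

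**Figure D4:**
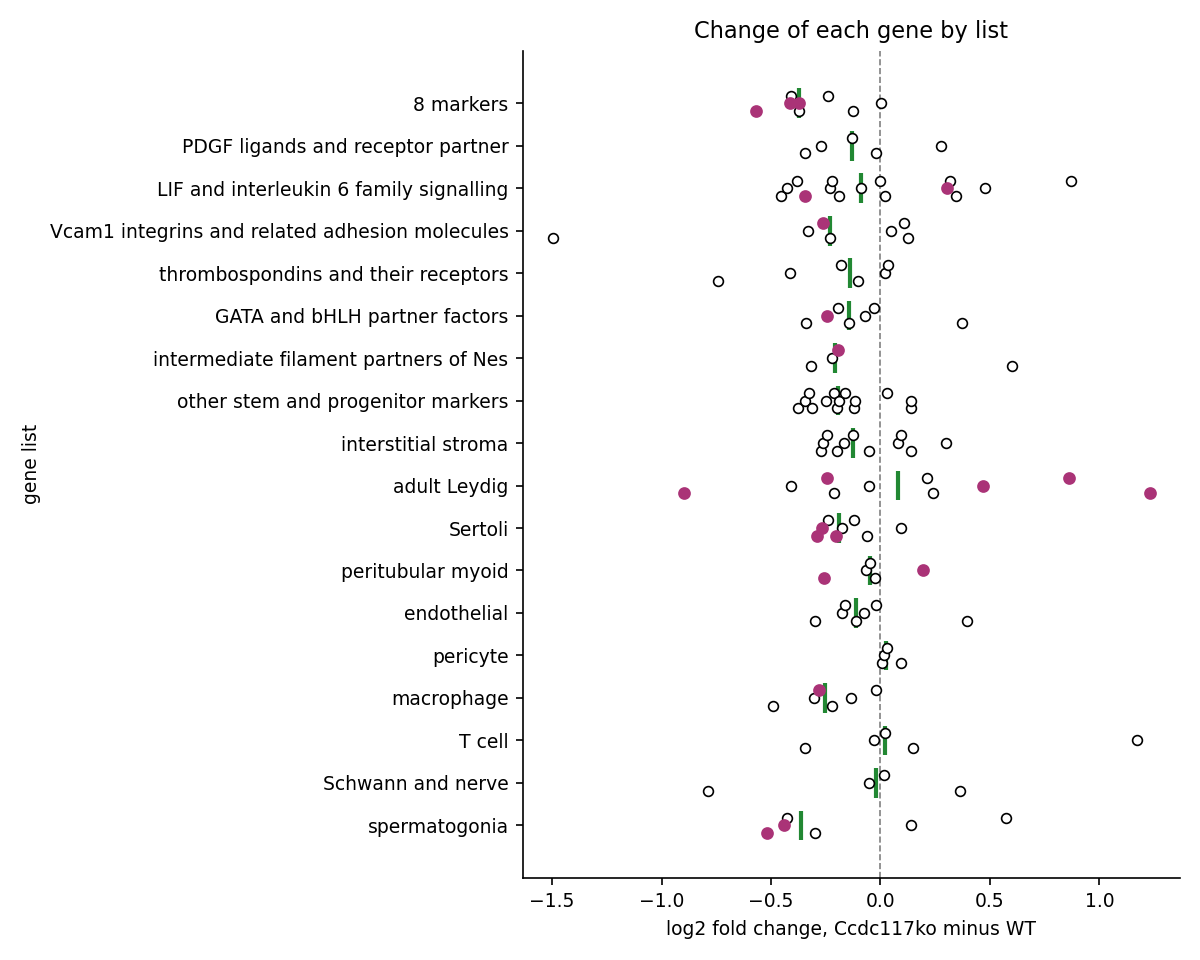
Log2 fold change (horizontal axis, Ccdc117ko minus WT) of each tested gene of the 8 markers, the partner and lineage lists and the lists of other testis cell types, filled where the limma adjusted p was under 0.05, with a green line at the median of each list. The median of the 8 markers (-0.37) and of the spermatogonial list (-0.36) lie furthest to the left of the lists drawn, and the adult Leydig list spreads from -0.90 to 1.23.

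Markers of other testis cells that could carry these transcripts were read in the same libraries. The summed normalized counts of 8 Sertoli genes were 50508 to 51713 in WT and 45935 to 47671 in Ccdc117ko, with 3 lower and none higher. Clu made up most of this sum (means of 43791 and 40246) and was not called (limma adjusted p = 0.0508). Of the 8 Sertoli genes 7 were below 0. The sums of 6 macrophage genes were 2520 to 2870 and 2168 to 2418 with 1 lower, and those of 6 spermatogonial genes 3770 to 3876 and 3221 to 3522 with 2 lower. Over all tested genes 3.10% were called lower. At an unadjusted p under 0.05, 6 Sertoli, 2 macrophage and 4 spermatogonial genes were lower and 0 higher, against 11.6% of all tested genes lower. By the authors' FDR 5, 2 and 2 were lower, where 5.77% of all genes were. The list medians were -0.19, -0.25 and -0.36, with 6 macrophage and 4 spermatogonial genes below 0. The part of these cells in the lower marker values was not tested. Endothelial (1563 to 1678 in WT, 1522 to 1640 in Ccdc117ko), pericyte (387 to 430, 379 to 446), Schwann and nerve (574 to 686, 551 to 594) and T cell genes (136 to 189, 145 to 163) overlapped between genotypes and gave 0 limma calls, with 2 genes lower and 1 higher at an unadjusted p under 0.05 and 1 lower by the authors' FDR. The 5 peritubular myoid genes summed to 13407 to 14059 and 14591 to 15263, a sum made up mostly of Actg2 (means of 9588 and 10984), which was the 1 called higher. The other 4 were below 0, with Myh11 called lower, and the median of the list was -0.05. No gene on these lists was at 0 in all libraries.

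For neighbouring tissue, 4 fat cell genes summed to 237 to 301 in WT and 314 to 342 in Ccdc117ko, 3 genes of the testis surface to 110 to 130 and 81.6 to 102, and 4 epididymal genes to 3.93 to 15.2 in WT and at most 11.1 in Ccdc117ko. Adipoq made up most of the fat cell sum (means of 174 and 233) and Lrrn4 most of the surface sum (117 and 84.6), and the list medians were 0.04 and 0.26. None of these was called by limma, with 1 lower and 1 higher at an unadjusted p under 0.05 and 1 higher by the authors' FDR, and their part in the marker values was not tested.

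The genes of the partner and lineage lists most like each marker across the 6 libraries were read as a description, with Pearson's r of the log2 values over 77 candidates. Hsd3b1 (r = 0.98) and Gata4 (0.95) were most like Vcam1, Nr5a1 (0.99) and Cd47 (0.96) most like Pdgfra, and Thbs1 and Cd47 (each 0.95) most like Lifr. For Gata6 they were Thbs1 (0.95) and Hsd17b3 (0.93), for Tcf21 Lhcgr (0.92) and Lum (0.89), and for Nes Des (0.94) and Dcn (0.92). Thy1 was most like Lum and Nr2f2 (each 0.91) and Thbs2 most like Mfap5 (0.90) and Col1a2 (0.77). The points share library, scaling and genotype, so a gene that differs between genotypes is like any other that does.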

How the data were processed

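Libraries were made from testis RNA with a stranded mRNA kit, per the labels' protocols; STAR, DESeq2 and mm10 are named in the submitters' processing notes, without version or role. How reads were counted, and with which strand setting, is not given in the sources used here. No single antisense gene shares more than 4.55% of a marker's exon bases (Gm42802 with Pdgfra), and Gm42803 shares 1.66% with Pdgfra. The authors deposited 1 log2 value per gene and library, read here from the values as log2(normalized count + 1). After the log2 was undone, 100% of values under 500 reads were whole multiples of 1 step within 0.01, which gave the reads. The authors also deposited a log2 fold change and a p-value and FDR from a test the file does not name.

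Limma-trend (limma 3.58.1, R 4.3.3) was fitted to the deposited log2 values of the 6 libraries with genotype as the only term, for 32783 genes averaging 0.5 normalized counts or more; this was the test chosen for log2 values, and no count model was run on the recovered reads. P-values are two-sided and Benjamini-Hochberg adjusted over all genes tested, with a threshold of 0.05. On the log2(normalized count + 1) scale, changes of weakly covered genes come out too small. Coordinates, exon and transcript lengths came from GENCODE M21 (mm10), matched to 32704 of the genes tested; for the length correction, natural splines of log2 length and GC content were fitted to each library's departure from the mean of the gene and taken out. Replicate pairs differed with a chi-square of 4.68 to 7.50 per degree of freedom, so no library was a duplicate. The fit was also run on simulated counts. These held no length trend and no library was left out, so they do not bear on how the calls depend on either.

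The markers, the 21 other lists and the tests were chosen with earlier results of these data known. Named were all 8 markers, the called genes of each partner and lineage list (at most 4, or the 2 most abundant with none called) and the 2 genes most like each marker; Nr5a1, Il6st, Stat3, Lif, Pdgfrb, Itga4, Thbs1, Actg2, Myh11, Adipoq and Lrrn4 were also named after their values were seen, and Insl3 and Clu to check the tissue. The result of 1 called partner gene is not reported here. The alternatives covered low-value filters, pseudocounts, scaling, variance model, each library left out, the replicate number as a block and the length correction.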

Additional observations from a re-analysis of the deposited data

How the results depend on the processing

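Scaling, pseudocounts, robust moderation and the low-value filters left the markers called at 3. With no intensity trend limma called 0 (3 at an unadjusted p under 0.05, as with all libraries), with the length and GC trend removed 1 (Vcam1), and with a library left out 0 to 1 (3 to 4 at an unadjusted p under 0.05). Over the whole table the 2228 calls became 3798 among genes averaging 10 or more, 103 with no intensity trend and 6 to 1268 with a library left out; with both, a combination chosen after seeing the data, they were 4021, 2679 and 1866 without WT replicates 1 to 3 and 2839, 1714 and 2511 without Ccdc117ko replicates 1 to 3. The 10 partner and lineage calls became 21 among genes averaging 10 or more, 1 with no intensity trend, 6 with the length and GC trend removed and 0 to 7 with a library left out (22 to 31 at an unadjusted p under 0.05). With both they were 19, 17 and 9 without WT replicates 1 to 3 and 16, 8 and 14 without Ccdc117ko replicates 1 to 3. Among genes averaging 10 or more Pdgfa, Ngfr, Thbs1 and Lhcgr (limma adjusted p = 0.0427) passed the threshold. The cause was not tested; a library left out also leaves fewer samples to the fit.

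The replicate numbers did not pair the libraries: deviations of same-numbered libraries from their genotype mean had r of -0.08, -0.05 and 0.04, and not every library was most like its own number (r = 0.13 for WT 1 and Ccdc117ko 2). With the replicate block limma called 1 marker (Vcam1), 5 partner and lineage genes and 703 genes in all.

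The sign changed only for named genes without a call. Thbs2 had -2.84e-05 with a pseudocount of 0.5, -0.0046 with equal library totals, and -0.0394, -0.0422, -0.329 and -0.0924 without WT replicate 2, WT replicate 3, Ccdc117ko replicate 1 and Ccdc117ko replicate 3, also among genes averaging 10 or more, and its range with a library left out was -0.329 to 0.432. Thy1 had 0.0732 without Ccdc117ko replicate 3, under either filter, and -0.720 without WT replicate 2. With the length and GC trend removed Col1a2 had 0.0066 and Pdgfc 0.0565. With a library left out Pdgfc ran from -0.0722 to 0.0359, Ren1 from -0.41 to 0.0335 and Thbs3 from -0.0053 to 0.077.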
